A study of Mus musculus with 2 samples.

Results

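The Schlafen genes considered here are Slfn1, Slfn2, Slfn3, Slfn5, Slfn8 and Slfn9, which are 6 of the 18434 genes with a named probe on the arrays. A probe was taken as theirs where the RefSeq accession beside it in the scanner output belonged to one of these genes, which gave 7 probes, namely A_52_P425890 for Slfn1, A_51_P423578 for Slfn2, A_51_P228768 for Slfn3, A_51_P364694 and A_51_P413359 for Slfn5, A_52_P543489 for Slfn8 and A_51_P504988 for Slfn9. The genes were chosen by family, and the family was selected on the log2 differences between these same 2 arrays, so the values below are descriptions and no test is attached to them. CD4 T cells from the spleen of wild-type C57BL/6 mice, with a labelled purity above 98%, were kept for 5 days, of which the first 2 days were under stimulation of the T cell receptor and CD28 and 3 days followed. The Th9 culture received IL-4 at 10 ng/ml, TGFbeta at 3 ng/ml and an antibody that blocks IFNgamma at 1 µg/ml, a mixture that steers CD4 cells to IL-9 production. The Th9+IFNgamma culture received IL-4 at 3 ng/ml, TGFbeta at 3 ng/ml and IFNgamma at 10 ng/ml. IFNgamma, its antibody and the IL-4 dose therefore differed together and cannot be told apart. Each culture was read on 1 single-colour array, without a replicate, and the labels do not give the number of mice or whether they were pooled.

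Schlafen proteins are interferon-inducible regulators of cell growth found in mammals, and their genes lie in a tandem cluster. The short members (Slfn1 and Slfn2) consist of little more than the Schlafen core, Slfn3 is of intermediate length, and the long members (Slfn5, Slfn8 and Slfn9) add a helicase-like region at the C-terminal end. The family was named after the German word for sleep, because forced expression of Slfn1 stops the growth of T cell precursors and fibroblasts, and because the genes are regulated as T cells leave and re-enter rest. Loss of Slfn2 function in mice leaves T cells unable to stay quiescent, and Slfn2 is also known to bind transfer RNAs and shield them from cleavage.

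Because Schlafen genes are induced by interferons, the 250 bases before each gene's start were searched for the usual interferon sites. The sequences are from RefSeq on GRCm38.p6, and all 6 genes were found there, with 7 starts because Slfn8 has 2. The GAS element, the activation site of IFNgamma target genes, was searched as TTCNNNGAA, which reads the same on both strands. It was found in 0 of the 6 genes. Of 32851 promoters of that length, 7.02% hold it, so 0 among 6 genes is close to that share. The core of the ISRE element, which binds interferon regulatory factors, was searched on both strands as GAAA, any 2 bases and GAAA, which reads TTTC, any 2 bases and TTTC on the other strand. It was found in 3 of the 6, namely Slfn5, Slfn8 and Slfn9, and in 2.98% of all promoters. A promoter without a match has none of these letters in that window, and says nothing about binding of the factor. With no GAS match, none overlapped an ISRE match. The following sequences are shown because they carry the 3 matches, with the match in capitals, and because the promoters of Slfn8 and Slfn9 resemble each other. They run 5′ to 3′ on the gene's strand and end at the base before the start.
Slfn9, chr11:82991831-82992080, minus strand: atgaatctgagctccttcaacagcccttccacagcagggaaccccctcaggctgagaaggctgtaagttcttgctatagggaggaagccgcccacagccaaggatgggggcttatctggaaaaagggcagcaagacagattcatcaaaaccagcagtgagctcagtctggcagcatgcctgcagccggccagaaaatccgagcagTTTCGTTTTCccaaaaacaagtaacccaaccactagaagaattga
Slfn8, first start, chr11:83020811-83021060, minus strand: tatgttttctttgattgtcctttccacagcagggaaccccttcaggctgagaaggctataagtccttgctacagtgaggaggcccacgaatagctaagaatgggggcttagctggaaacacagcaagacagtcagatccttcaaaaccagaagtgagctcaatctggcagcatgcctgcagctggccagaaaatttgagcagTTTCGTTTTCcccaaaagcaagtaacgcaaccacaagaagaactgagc
Slfn5, chr11:82951852-82952101, plus strand: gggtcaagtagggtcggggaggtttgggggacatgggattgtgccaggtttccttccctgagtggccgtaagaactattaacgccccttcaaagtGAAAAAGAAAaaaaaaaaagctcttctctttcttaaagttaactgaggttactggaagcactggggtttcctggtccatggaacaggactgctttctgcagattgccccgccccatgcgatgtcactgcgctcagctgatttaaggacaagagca
The promoters of Slfn8 (first start) and Slfn9 were 80.2% identical over an alignment of 262 positions, and both carry TTTCGTTTTC, at bases 48 to 39 and 45 to 36 before the start. Other pairs of genes reached at most 53.4%. The window of the second Slfn8 start, which lies downstream, holds the same match at bases 136 to 127. The match in Slfn5, GAAAAAGAAA, lies further off, at bases 155 to 146, next to a run of A. With only the 100 bases next to the start, 2 of the 6 genes kept an ISRE match (0.983% of all promoters) and 0 a GAS match. Slfn1, Slfn3 and Slfn2, which had the largest differences between the cultures, have neither match. The members with an ISRE match, Slfn9, Slfn8 and Slfn5, had the lowest log2 differences, and a link between match and difference was not tested. Slfn1 is shown as an example without a match.
Slfn1, chr11:83116570-83116819, plus strand: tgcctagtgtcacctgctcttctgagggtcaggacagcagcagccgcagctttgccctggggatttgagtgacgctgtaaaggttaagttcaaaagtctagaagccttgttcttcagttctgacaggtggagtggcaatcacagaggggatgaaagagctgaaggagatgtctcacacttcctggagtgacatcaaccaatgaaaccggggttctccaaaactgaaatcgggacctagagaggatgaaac

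All 6 genes were well above background on both arrays by at least 1 probe, and 4 of them (Slfn1, Slfn3, Slfn2 and Slfn9) were at least 2-fold higher in the Th9+IFNgamma culture. None was at least 2-fold lower. The same 2-fold size was reached upwards by 5.15% and downwards by 7.42% of all 12272 genes measured on both arrays. The median log2 difference, Th9+IFNgamma minus Th9, was 1.68 over the 6 genes and -0.01 over all genes. Slfn8 and Slfn5 lay within 2-fold, on opposite sides of 0. Signals are linear units after both arrays were brought to the same 75th percentile, and they compare the same probe between arrays, not different genes. The error given with each is that attached by the extraction software, which covers the reading of the array and not the spread between cultures or mice. In bulk RNA, more cells expressing a gene and more RNA per cell cannot be told apart.

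**Figure D1:**
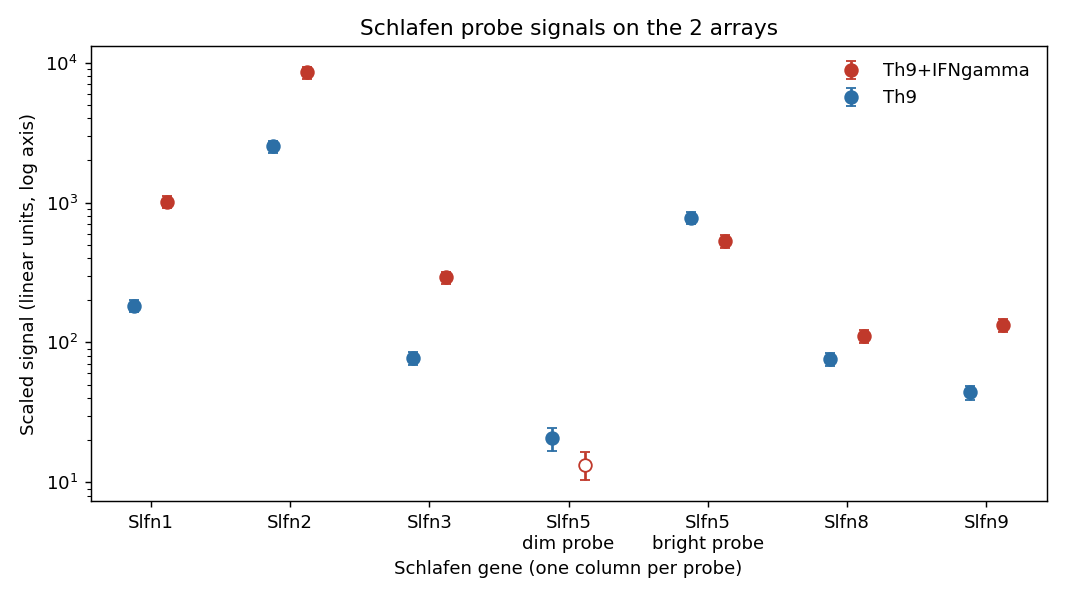
Scaled signal of each of the 7 Schlafen probes (log axis) in Th9+IFNgamma (red) and in Th9 (blue), 1 array each; bars are the error attached by the extraction software and the open circle is a signal not well above background. Slfn1, Slfn2, Slfn3, Slfn8 and Slfn9 are higher with IFNgamma, and both Slfn5 probes are lower.

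Among the short members, Slfn1 had a scaled signal of 1010 ± 101 (software error) in Th9+IFNgamma and 183 ± 18.4 in Th9. This 5.53-fold difference, a log2 difference of 2.47 with a software error of 0.21, was the 96th highest of the 12272 genes. Slfn2, the member whose loss breaks T cell quiescence, had scaled signals of 8512 ± 851 and 2523 ± 252. It was 3.37-fold higher in Th9+IFNgamma (log2 difference 1.75, software error 0.20) and ranked 204th. Both short genes were thus already well above background in the Th9 culture, where IFNgamma was blocked, and were higher with IFNgamma.

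Slfn3, the member of intermediate length, had scaled signals of 292 ± 29.3 in Th9+IFNgamma and 76.9 ± 8.22 in Th9. The difference was 3.80-fold (log2 difference 1.92, software error 0.21), the 170th highest of all measured genes. On the Th9 array its raw median signal was 127 over a local background of 48, so the lower value sits close to the background. With normexp background correction its log2 difference was 1.27, still above 2-fold.

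The long members did not share a direction. Slfn9 had scaled signals of 133 ± 13.5 in Th9+IFNgamma and 43.9 ± 5.21 in Th9, a 3.03-fold difference (log2 difference 1.60, software error 0.23) that ranked 255th. Its raw median signals were 199.5 and 101 over local backgrounds of 49 and 51, and with normexp correction its log2 difference was 0.85, under 2-fold. Slfn8 had scaled signals of 111 ± 11.4 and 76.5 ± 8.18. It was 1.45-fold higher in Th9+IFNgamma (log2 difference 0.53, software error 0.21), with 14.0% of measured genes above it. Slfn8 and Slfn9 are close relatives in sequence, and a probe for one can take up RNA of the other, so that their separate values are uncertain.

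Slfn5, a long member, was read by 2 probes, and both were lower in Th9+IFNgamma. The brighter probe gave 530 ± 53.0 in Th9+IFNgamma and 775 ± 77.5 in Th9, which is 1.46-fold lower (log2 difference -0.55, software error 0.20), with 16.7% of measured genes below it. The dimmer probe gave 13.4 ± 3.08 and 20.6 ± 3.93 and was well above background only in Th9. Its measured ratio was 1.54-fold in the same direction (log2 difference -0.62, software error 0.43), at signals close to the background. Slfn5 was the 1 member with a negative difference.

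The members fell into the order Slfn1, Slfn3, Slfn2, Slfn9, Slfn8, Slfn5 by log2 difference. The gap between Slfn1 and Slfn3 was 0.54, beyond their joint software error of 0.29. The gaps between Slfn3 and Slfn2 (0.17) and between Slfn2 and Slfn9 (0.15) were within it (0.29 and 0.30), so these neighbours are not separated. Slfn9 and Slfn8 were 1.06 apart (joint error 0.31), and Slfn8 and Slfn5 were 1.08 apart (0.30).

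**Figure D2:**
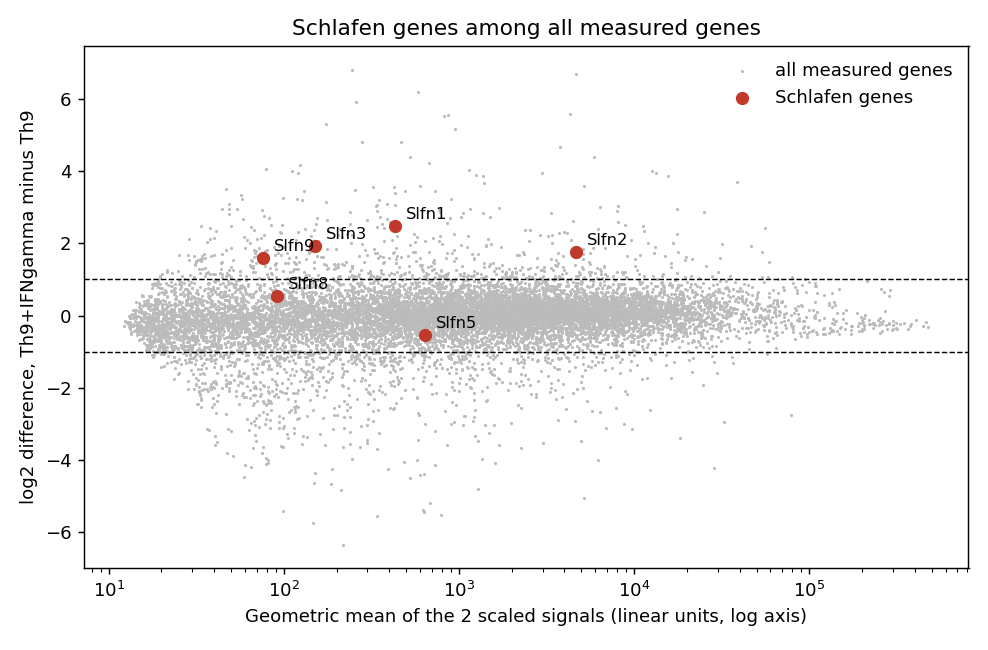
The log2 difference of each of 12272 measured genes (grey) against the geometric mean of its scaled signals on the 2 arrays (log axis), with the 6 Schlafen genes in red; dashed lines mark 2-fold. Slfn1, Slfn2, Slfn3 and Slfn9 lie above the upper line, and Slfn8 and Slfn5 between the lines.

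Along mouse chromosome 11 the RefSeq table orders the genes as Slfn5, Slfn9, Slfn8, Slfn10-ps, Slfn2, Slfn1, Slfn4, Slfn3 and Slfn14. By the main values, the genes at least 2-fold higher are not adjacent as a block, since Slfn8 lies between Slfn9 and Slfn2. This rests on Slfn9, which was under 2-fold with normexp correction (log2 difference 0.85) and is uncertain apart from Slfn8. Among Schlafen genes, Slfn2, Slfn1 and Slfn3 are interrupted only by Slfn4. Slfn4, best known from myeloid cells, and Slfn14, together with Slfnl1 on another chromosome, did not rise above background in either culture, with scaled signals of 2.50 and 3.12 for Slfn4, 2.44 and 2.77 for Slfn14, and 2.31 and 2.63 for Slfnl1 (Th9+IFNgamma first). Slfn10-ps had no named probe. The long noncoding RNA gene AI662270, which lies between Slfn3 and Slfn14, was 1.31-fold higher. Of the 6 nearest genes with a named probe outside the cluster, 4 were measured and 0 were at least 2-fold apart. Nle1 (a ribosome assembly factor) was 1.11-fold lower, Ap2b1 (a clathrin adaptor subunit) 1.38-fold higher and Rasl10b (a Ras-like GTPase) 1.13-fold lower. Fndc8 and Unc45b did not pass the background in either culture.

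**Figure D3:**
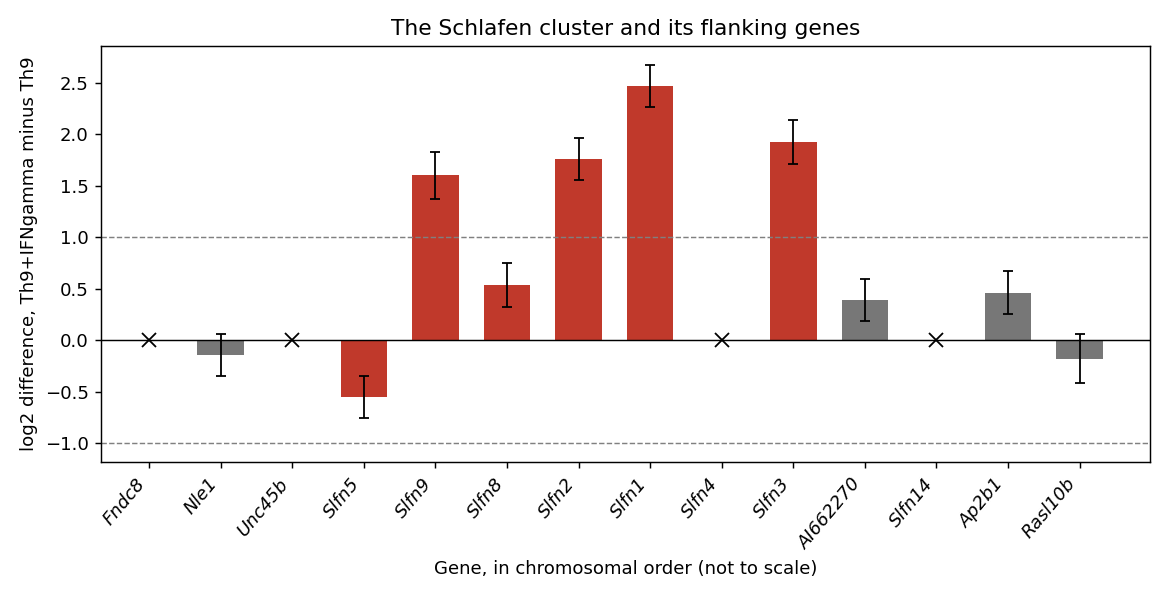
The log2 difference, Th9+IFNgamma minus Th9, of genes with a named probe in and around the Schlafen cluster in chromosomal order, 1 flanking gene left out; red bars are the 6 Schlafen genes, grey bars other genes, error bars the software error, crosses genes not well above background, and dashed lines 2-fold. The 4 tall bars are Slfn9, Slfn2, Slfn1 and Slfn3, and the flanking genes stay within 2-fold.

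As background, interferons act on their target genes through their receptors, the JAK kinases, STAT factors and the interferon regulatory factors. Of 18 measured genes of this signalling chain, 6 reached 2-fold upwards with IFNgamma and 2 downwards, beside 5.15% and 7.42% of all measured genes. Their median log2 difference was 0.85, beside -0.01 over all genes. The transcription factor genes Irf7 (1246 against 150) and Irf1 (67688 against 9272) were 8.33-fold and 7.30-fold higher, and Usp18, a feedback inhibitor of interferon signalling, was 6.59-fold higher. The receptor genes Ifngr1 and Ifnar1 lay within 2-fold at 1.84-fold and 1.77-fold higher. Their partner chains differed, with Ifngr2 1.51-fold lower and Ifnar2 2.41-fold higher, each by its brightest probe. Irf9, which joins the STAT complex of type I interferon, was 1.85-fold higher and just passed 2-fold with median scaling (log2 difference 1.01). Socs3, an inhibitor of cytokine receptors, was 2.96-fold lower and Jak2, a kinase of the IFNgamma receptor, 2.29-fold lower by its brighter probe and 1.87-fold lower by the other.

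The T cell quiescence list, which holds factors that keep resting T cells at rest, showed no shared direction. Of its 28 measured genes, 3 reached 2-fold upwards with IFNgamma, 2 downwards and 23 neither. Over all measured genes the shares were 5.15% upwards and 7.42% downwards. The median log2 difference of the list was -0.03 (0.08 with median scaling). Cdkn2c, a cyclin-dependent kinase inhibitor, was 4.36-fold higher (3075 against 705), Peli1, a ubiquitin ligase that restrains T cell activation, 2.29-fold higher, and Vsir, the inhibitory receptor VISTA, 2.07-fold higher (log2 difference 1.05, just below 1 with loess scaling). Satb1, a chromatin organiser of T cells, was 5.92-fold lower (3239 against 19184), and Il7r, the receptor for the survival cytokine IL-7, 2.26-fold lower. Foxo1, a transcription factor of resting T cells, was 1.71-fold lower, and Tob1, an antiproliferative gene, had equal signals within error (191 and 194). Tsc1, a brake on mTOR, was 1.24-fold lower by its brightest probe, and its probes did not share a sign. Klf2, which encodes a factor that enforces quiescence, was read differently by its 2 probes. The brighter gave 64586 in Th9+IFNgamma and 73515 in Th9, and the dimmer 39298 and 9379, a 4.19-fold higher signal, so no direction is given for it. Slfn2, of the same functional group, was 3.37-fold higher.

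Growth and proliferation genes leaned towards Th9+IFNgamma, mostly by less than 2-fold. Of 42 measured genes, 35 had a positive log2 difference, around a median of 0.55, beside -0.01 over all genes. At least 2-fold, 6 were higher and 1 lower, where 5.15% and 7.42% of all measured genes were. The nucleotide synthesis genes Tk1 and Tyms were 2.42-fold and 2.38-fold higher, and Top2a, a topoisomerase of dividing cells, was 2.32-fold higher. Mki67, the marker of cycling cells, was 1.75-fold higher (44927 against 25736), whereas Myc was 1.23-fold lower and Ccnd2, a G1 cyclin, had nearly equal signals (43876 and 45978). Hk2, the first enzyme of glycolysis in activated T cells, was 2.41-fold lower. Besides Myc, Ccnd2 and Hk2, the 7 genes with a negative log2 difference were Ncl, Npm1 (1.56-fold lower), Mtor and Rps6kb1. Other growth and metabolism genes were higher, among them Slc7a5 (1.60-fold) and Odc1 (1.52-fold). The measured replication and mitosis genes were all higher by their brightest probes. The culture with higher Slfn1, Slfn2, Slfn3 and Slfn9 signals was thus also the one with the higher signals of the listed replication and mitosis genes.

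Slfn2 is tied to transfer RNA cleavage, so genes of that process and of the related stress response were read too. Of 15 measured genes, 2 reached 2-fold upwards and 0 downwards, beside 5.15% and 7.42% of all measured genes. The median log2 difference was 0.27, beside -0.01 over all genes. Trdmt1, which methylates transfer RNA, was 3.97-fold higher (3055 against 769), and Eif2ak2, the interferon-inducible kinase PKR, was 3.84-fold higher. Ang, which encodes the transfer RNA nuclease angiogenin, was 1.31-fold higher at dim signals (116 and 88.8), and Rnh1, its inhibitor, was 1.36-fold lower.

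**Figure D4:**
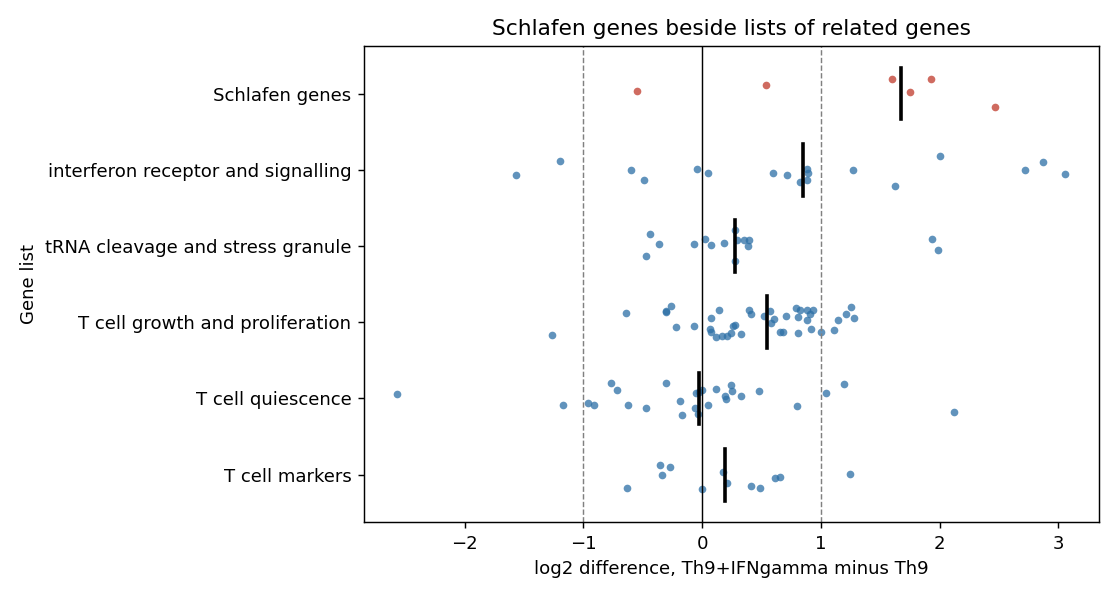
The log2 difference, Th9+IFNgamma minus Th9, of each measured gene in 6 lists (1 point a gene, spread vertically only for legibility); black bars are list medians and dashed lines mark 2-fold. The Schlafen median is 1.68, that of interferon receptor and signalling genes 0.85, and that of quiescence genes -0.03.

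The cells read as T cells on both arrays. All 12 T cell markers were well above background on both, and 11 lay within 2-fold, with Cd3e at 1789 and 1544 and Cd4 at 502 and 444 (Th9+IFNgamma first). Each summed signal of other cell types is also given without the gene whose signals differed most between the arrays. Of 8 macrophage and monocyte markers with a named probe, 4 were measured, 4 passed the background in neither culture (among them Lyz2, Itgam and Fcgr1), and their summed scaled signal was 112 in Th9+IFNgamma and 274 in Th9. Adgre1 was 7.19-fold lower (log2 difference -2.85, but -1.45 with normexp correction), and without it the sums were 85.7 and 88.0. Of 7 neutrophil markers none was measured on both arrays (sum 19.2 against 51.4). Cxcr2 passed the background only in Th9, by at least 3.03-fold over Th9+IFNgamma for 1 of its 2 probes. Without Cxcr2 the sums were 16.0 and 17.7. B cell markers (3 of 8 measured) summed to 950 against 1488 (105 against 300.4 without Cd79b). Cd22 passed the background only in Th9, by at least 13.3-fold for 1 of its 2 probes. Dendritic cell markers (3 of 6 measured) summed to 168 against 174 (154 against 171 without Clec10a, which passed the background only in Th9+IFNgamma). Of 7 NK cell markers, 6 were measured and the defining Ncr1 was not well above background. Their sum was 7826 against 6793, and 5340.4 against 6705 without Eomes, which was 28.2-fold higher (log2 difference 4.82, and 4.04 with normexp correction). Most of the sum without Eomes was the signal of Gzmb alone (4978 against 6335), so it says little about the other NK cell markers. Klra8 was 4.59-fold lower at dim signals (15.6 against 71.4; log2 difference -2.20, but -0.88 with normexp correction, under 2-fold). Hba-a1, a red cell gene, was 2.24-fold higher (120 against 53.4; log2 difference 0.63 with normexp correction), with a sum of 155 against 91.4 over the 5 red cell markers (35.5 against 37.9 without Hba-a1), of which Alas2 and Epb42, among others, were not well above background. The part of these other cells in the Schlafen results was not tested. Cd8a, a marker of CD8 T cells, was above background on both arrays and within 2-fold (1338 against 1074).

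The order of the Schlafen differences could change under only some of the settings tried. Settings that pick among probes or filter dim ones left every value as it was, since each member has 1 measured probe. Median scaling, the percentile over detected probes and the deposited log2 table move all members equally and cannot reorder them. Only quantile normalization, loess scaling and normexp correction could do so. Under 10 other settings Slfn1 stayed highest and Slfn5 lowest in all 10. The whole order was kept in 9, and 4 members were at least 2-fold higher in 9. The exception in each case was normexp correction, which adds an offset and so shrinks the differences of dim probes; there Slfn2 came before Slfn3 and 3 members were at least 2-fold higher. Over all settings the log2 difference ran from 2.13 to 2.58 for Slfn1, 1.70 to 1.87 for Slfn2, 1.27 to 2.04 for Slfn3, 0.85 to 1.71 for Slfn9, 0.28 to 0.65 for Slfn8 and -0.57 to -0.43 for Slfn5.

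**Figure D5:**
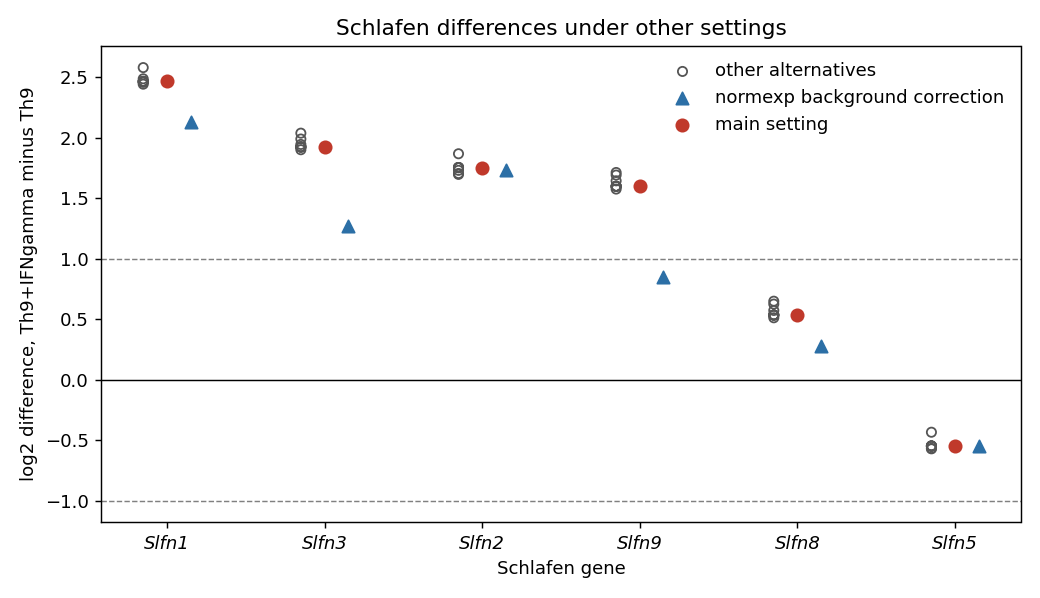
The log2 difference, Th9+IFNgamma minus Th9, of each Schlafen gene in the main setting (red), with normexp background correction (blue triangle) and under the 9 other alternatives (open circles); dashed lines mark 2-fold. Slfn9 falls from 1.60 to 0.85 with normexp correction, and the signs of all 6 genes are kept.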

How the data were processed

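RNA of 2 cultures was read on 2 single-colour arrays, grouped by the labelled culture condition. Per the file headers, the authors extracted the deposited intensity values in version 10.7.3.1 of Agilent's Feature Extraction software (10.7 in the submitters' processing notes), background-subtracted and detrended within each array, without scaling between arrays. The flags deposited beside them are other values of 0 or 1 per the file headers. A deposited table of log2 values is log2 of the processed signal plus a constant per array (-9.30 and -9.15), which is close to minus log2 of that array's 75th percentile (column medians -4.05 and -3.93); it served as an alternative.

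Here, a probe's value is the mean log2 processed signal of its spots less the 75th percentile (631.9 and 567.0). Scaled signals are set to a common 598.6. Control spots and 3 outlier probes were left out, and 0 spots were saturated. Probes were named through RefSeq accessions on GRCm38.p6 (27050 of 41174); the array design names mm9, so the only coordinates given are those of the RefSeq promoters. A gene takes its brightest probe well above background on both arrays. Where probes pass on 1 array only, the probe with the largest bound is given. With 1 array per condition no test exists, differences are set against 2-fold, and the number of arrays limits the precision. Spots of 144 probes printed 10 times had an SD of the log2 difference of 0.14 (0.27 below a signal of 64). The gene table was tested on simulated data with 1 probe per gene, every probe called detected and changes placed only in brighter probes. The choice among probes, the background flag and changes in dim probes were thus not covered. Members and lists were chosen with earlier results of these data known. Named genes are all members, the cluster's 3 nearest neighbours a side and 15 preset genes. Per list, the 3 largest differences and 2 largest bounds a direction of at least 2-fold were also named. Cd3e, Cd4, Cd8a, Cd79b, Clec10a, Gzmb, AI662270 and markers not well above background were named after values were seen. So were Ifnar2, Ifngr2, Ncl, Npm1, Mtor, Rps6kb1, Slc7a5 and Odc1. Marker sums without 1 gene were likewise added after values were seen. The planned normexp correction used median spot signals, as the files hold no mean. Tools were Python 3.11.15, pandas 2.3.3, Biopython 1.88, R 4.3.3 and limma 3.58.1. Some genes covered by these rules are not reported here.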

Additional observations from a re-analysis of the deposited data

How the results depend on the processing

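Apart from normexp correction, no setting tried moved a Schlafen difference by more than its software error. With normexp, chosen in this form after seeing the files, the log2 differences were 2.13 for Slfn1, 1.27 for Slfn3, 0.28 for Slfn8 and 0.85 for Slfn9, while Slfn2 and Slfn5 moved less than their error. Its offset shrinks the log2 differences of dim probes by construction, so the dimmer members (Slfn3, Slfn8 and Slfn9) are the least certain in size. Over all genes, 632 were at least 2-fold higher and 910 lower in the main setting. The counts were 1205 higher and 1788 lower without a filter on dim probes, and 582 lower with normexp. At 1.5-fold they were 1549 and 1901, and at 3-fold 262 and 437. With median scaling, which moved the median of all genes from -0.01 to 0.11, 772 were higher and 776 lower. The interferon signalling list had 1 gene at least 2-fold lower by the probe with the smallest difference, against 2. The NK cell list had a median of -0.35 without a filter and 0.37 with signals of at least 100, and 0 genes at least 2-fold lower with those signals or with normexp, against 1; the cause was not tested. No paired analysis was possible because each culture has 1 array.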
